A study of Mus musculus with 6 samples.

Results

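Genes for the proteasome were examined in mouse oocytes that had completed growth but not resumed meiosis, the germinal vesicle stage, in which the nucleus is still whole. Members were the probe sets that the platform annotation assigned to a single gene symbol beginning with Psma, Psmb, Psmc, Psmd, Psme, Psmf or Psmg, with Psmc3ip left out. This gave 101 of 45037 probe sets, which stood for 48 of the 18193 genes named by a single symbol. The symbol rule also took in Psme3ip1, which is no subunit. A further probe set, shared by Psme2 and Psme2b, carried both symbols and was left out. Oocytes of XY females of B6.Y(TIR) were set against oocytes of their XX littermates. In this line a Tirano Y chromosome is combined with the C57BL/6 background, and XY animals can develop ovaries. Each array held RNA of 10 oocytes of 1 female, with 3 XY and 3 XX females. Females of both groups were 25 to 29 days old, received 5 IU of equine chorionic gonadotropin and were killed 45 to 47 hours later. The oocytes were freed of cumulus cells by pipetting. An array reads the mean of its oocytes, so a change in every oocyte and a change in some of them cannot be told apart.

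The proteasome is the protease that degrades proteins tagged with ubiquitin. Its core particle is a barrel of stacked alpha and beta rings, with the protease sites on 3 of the beta subunits, and its regulatory particle binds ubiquitin, unfolds the substrate with a ring of ATPases and feeds it into the barrel. In oocytes, proteasomes degrade cyclin B and securin as meiosis proceeds, and they remove maternal proteins after fertilization.

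Of the 48 genes, 45 were tested, each through its brightest probe set that reached the median intensity of the array in 3 or more of the 6 arrays. Of the 45, 3 rose and 1 fell in XY oocytes by limma at an adjusted p of 0.05, where the adjustment covered all 12442 genes tested. Psmg2, Psmb9 and Psmc6 rose and Psmd10 fell. These 4 genes are 8.89% of the proteasome genes, against 13.2% of all genes, of which 7.86% rose and 5.34% fell. Psmg2 passed the filter through its XY arrays alone, and without it 2 of 44 genes rose and 1 fell (6.82%). At an unadjusted p under 0.05 stood 10 of the 45 genes, against 32.2% of all genes. The median log2 change, XY minus XX, was 0.09 over the 45 genes and 0.07 over all genes, but -0.22 and -0.12 for the deposited values without normalization, and -0.38 and -0.27 with median scaling. The median size of the change was 0.20 over the 45 genes and 0.34 over all genes. Scaling also set the split of all calls, with 978 genes higher and 665 lower as given here, 472 and 529 if the deposited scale was kept. Median scaling gave 482 higher and 1622 lower, and scaling to the trimmed mean 1423 higher and 586 lower. The groups did not overlap for 17 of the 45 genes (37.8%), 13 with XY above and 4 with XY below, against 38.8% of all genes. Most proteasome genes gave bright signals, with 36 of the 45 among the 4147 brightest genes, of which 12.1% passed and whose median size of change was 0.29.

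For the 41 genes that did not pass, limma's 95% interval of the change, not adjusted for the number of genes, lay inside a 1.5-fold change either way for 22 and inside a 2-fold change for 34. The other 3 members, Psma8, Psmb8 and Psme1, lay at or above the median on fewer than 3 arrays and were not tested with the filter. In the plot of all genes by array, most rows are pale, and the strongest colours belong to Psmg2, Psmb10, Psmd13, Psmd10 and Psmd14.

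**Figure D1:**
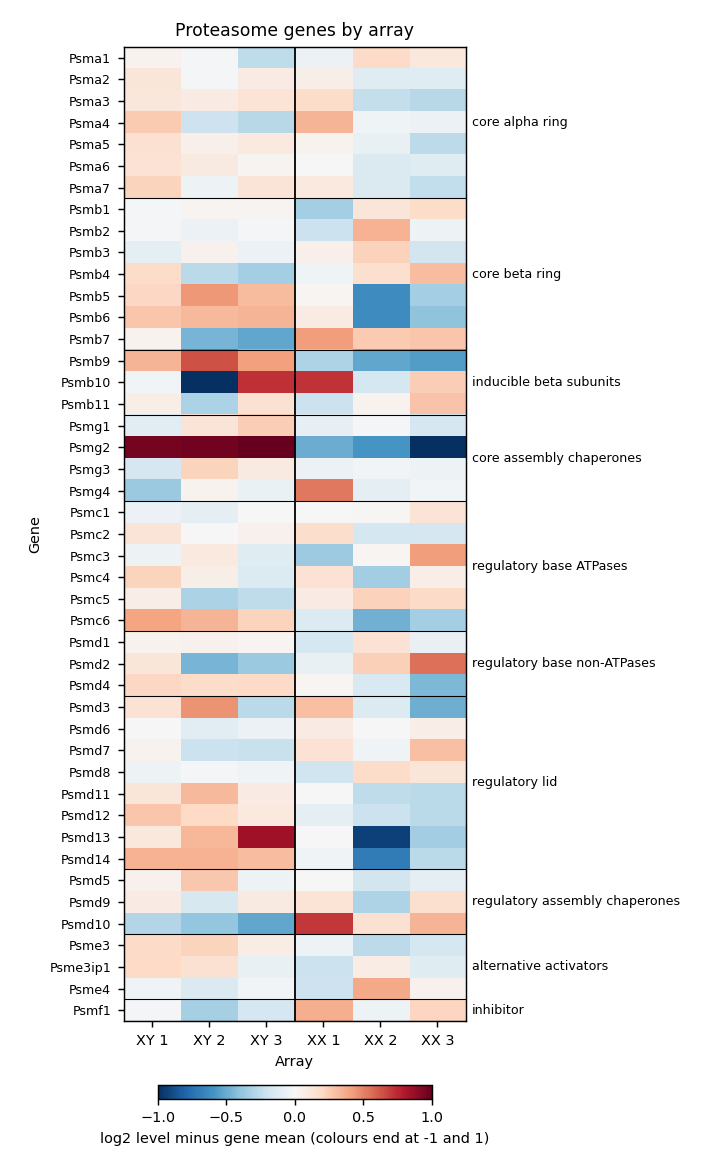
Log2 level of the 45 tested proteasome genes (rows, grouped by role) on the 6 arrays (columns, XY left of XX), each minus the mean of its gene over the arrays. Red is above and blue below the mean, with colours ending at -1 and 1; Psmg2 is red on the 3 XY arrays and blue on the 3 XX arrays.

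The promoters of 5 genes are shown: Psmb9, Psmc6 and Psmd10 are past the threshold, and Psmb5 and Psmb6 encode protease subunits with changes close to that of Psmc6. No promoter sequence was available for Psmg2, also past the threshold, or for the protease subunit Psmb7. The motif search leaves both of these out. Each promoter shown runs from 250 bases before to 50 bases after the gene's start (RefSeq, GRCm38.p6), and capitals mark matches to TGACNNNGC on either strand, the core of the antioxidant response element. That element is bound by the factors Nfe2l1 and Nfe2l2, of which Nfe2l1 is known to raise proteasome genes when proteasome activity is low.

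Psmb9 promoter, chr17:34187281-34187580, minus strand: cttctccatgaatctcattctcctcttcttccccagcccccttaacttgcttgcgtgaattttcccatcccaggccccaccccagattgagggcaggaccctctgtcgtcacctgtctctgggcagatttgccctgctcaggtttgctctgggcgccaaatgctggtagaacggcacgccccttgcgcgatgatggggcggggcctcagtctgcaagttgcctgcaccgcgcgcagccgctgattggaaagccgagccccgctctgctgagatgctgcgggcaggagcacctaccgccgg
Psmc6 promoter, chr14:45329574-45329873, plus strand: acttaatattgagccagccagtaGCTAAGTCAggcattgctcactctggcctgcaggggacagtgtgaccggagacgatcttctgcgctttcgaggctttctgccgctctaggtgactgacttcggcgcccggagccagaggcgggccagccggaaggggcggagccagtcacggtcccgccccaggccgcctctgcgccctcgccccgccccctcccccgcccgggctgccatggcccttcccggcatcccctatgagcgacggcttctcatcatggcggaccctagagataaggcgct
Psmd10 promoter, chrX:140956662-140956961, minus strand: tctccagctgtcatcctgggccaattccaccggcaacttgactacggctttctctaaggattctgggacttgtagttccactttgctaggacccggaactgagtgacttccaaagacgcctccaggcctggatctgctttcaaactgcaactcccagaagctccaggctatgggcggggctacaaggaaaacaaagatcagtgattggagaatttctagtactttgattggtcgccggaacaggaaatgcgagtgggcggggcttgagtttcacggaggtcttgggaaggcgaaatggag
Psmb5 promoter, chr14:54617946-54618245, minus strand: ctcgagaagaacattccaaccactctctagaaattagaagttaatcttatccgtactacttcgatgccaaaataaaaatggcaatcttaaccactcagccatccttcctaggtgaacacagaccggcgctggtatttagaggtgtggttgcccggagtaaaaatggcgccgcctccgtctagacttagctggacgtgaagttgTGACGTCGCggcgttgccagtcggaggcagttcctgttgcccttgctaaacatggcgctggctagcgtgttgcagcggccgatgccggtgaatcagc
Psmb6 promoter, chr11:70525107-70525406, plus strand: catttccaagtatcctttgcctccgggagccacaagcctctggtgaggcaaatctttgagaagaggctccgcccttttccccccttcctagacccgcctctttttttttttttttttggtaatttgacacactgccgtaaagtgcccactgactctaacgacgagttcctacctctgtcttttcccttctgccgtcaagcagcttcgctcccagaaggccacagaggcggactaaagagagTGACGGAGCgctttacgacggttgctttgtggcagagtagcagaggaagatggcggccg

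The letters TGACNNNGC occurred in 6 of the 40 member genes that have a promoter in the table, against 14.0% of 27025 genes. The 6 were Psmb5, Psmb6, Psmc6, Psmd12, Psmd9 and Psme4, with log2 changes of 0.64, 0.63, 0.64, 0.38, 0.01 and -0.14. Their median change was 0.51, and it was 0.09 over the 32 tested members whose window lacked the letters. These values are a description, since the motif was chosen with results of these data known. Of 3 further sequences searched on both strands, the interferon response element core, searched as GAAA, any 2 bases and GAAA, occurred in 5 of the 40 genes (3.99% of all genes), with no match for Psmb9. CCAAT occurred in 15 of the 40 (41.1% of all genes), among them Psmb9, Psmd10 and Psmd14, and GGAAGTG, as bound by Ets factors, in 8 (12.5% of all genes). Tested members with and without the interferon core had median changes of -0.03 and 0.12. These medians were 0.17 and 0.07 for CCAAT, and -0.05 and 0.17 for GGAAGTG. No difference between such medians was tested for any of the 4 motifs. No search counted overlaps between different motifs.

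The genes past the threshold had different roles, with Psmg2 and Psmd10 encoding assembly chaperones. Psmg2 encodes a chaperone that helps assemble the alpha ring of the core particle. Its log2 level was 6.64, 6.64 and 6.79 in XY 1, XY 2 and XY 3, against 5.18, 5.09 and 3.74 in XX 1, XX 2 and XX 3. All XY arrays lay above all XX arrays, and no XX array reached the filter's level of 5.24, so Psmg2 entered the test through its XY arrays alone. The deposited intensity was 91.8 ± 8.53 in XY oocytes and 17.3 ± 11.4 in XX oocytes (SD, n = 3 each). The log2 change was 2.02 ± 0.37 (SE, limma adjusted p = 0.0176). Its size depended on the pseudocount, at 2.59 with 1 and 1.34 with 32, and XX 3 lay near the floor of 3.17. Another kept probe set of Psmg2 had a log2 change of 0.25 (adjusted p = 0.446 over 22997 probe sets), so the large change was seen with 1 of its 2 kept probe sets, and the mean of both was 1.14. A further probe set, dim and not kept, had -0.19 ± 0.34 without the filter. Without XY 1, XY 2 or XY 3, the adjusted p of the gene became 0.0562, 0.0562 and 0.0584.

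Psmb9 encodes an inducible beta subunit, which takes the place of Psmb6 in the immunoproteasome of immune and interferon-treated cells. It had log2 levels of 5.92, 6.21 and 5.99 in XY 1 to XY 3, against 5.27, 5.06 and 5.01 in XX 1 to XX 3. The groups did not overlap, and the signal was dim in both, with deposited intensities of 57.2 ± 4.47 in XY and 23.9 ± 1.10 in XX oocytes (SD, n = 3 each). XX 2 and XX 3 lay below the filter's level of 5.24 and XX 1 just above it, so the XY arrays alone would have met the filter. It rose by 0.92 ± 0.16 (SE, limma adjusted p = 0.0146). The adjusted p was 0.0603 without XY 2, 0.0531 without XY 3, 0.0535 without XX 2 and 0.0531 without XX 3. The other inducible subunits did not pass. Psmb10, which replaces Psmb7, had log2 levels of 5.65, 4.18 and 6.41 in XY, against 6.40, 5.50 and 5.92 in XX, with a change of -0.53 ± 0.54 (adjusted p = 0.531). Psmb11, known as the beta subunit of the thymus, had a change of -0.07 ± 0.20, and Psmb8, which replaces Psmb5, had -0.32 ± 0.54 without the filter.

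Markers of other cells were read beside Psmb9, because leukocytes express it. Of 10 leukocyte markers, 4 were tested and 1 rose, Csf1r at 1.40, while 4, including Ptprc and Cd52, lay below the median on every array. Their summed normalized intensity was 769 to 911 in XY and 396 to 547 in XX oocytes, without overlap. Most of the XY sum came from Laptm5 (364.5 to 474.7 in XY, 163.7 to 299.8 in XX) and Csf1r (219.9 to 252.8 and 65.47 to 124). The 4 tested markers, Csf1r, Laptm5, Cd53 and Lyz2, were all higher on average in XY, with changes of 1.40, 0.80, 0.61 and 0.39. The dim Ptprc and Cd52 also lay higher in XY without overlap. Fcer1g, not tested and below the median on every array, went the other way without overlap (5.003 to 7.085 in XY, 9 to 24.85 in XX). Cd74, also not tested, was higher in XX 2 and XX 3 than in any XY array. The theca and stroma list summed to 456 to 576 in XY and 264 to 317 in XX, also without overlap, with 0 of 4 tested markers past the threshold by limma. Of these, Dcn (150.6 to 301.4 in XY, 20.65 to 90.81 in XX) lay at the threshold, with a change of 1.845 (limma adjusted p = 0.05). Of 10 tested granulosa and cumulus markers 1 rose, Inha at 1.58, and the list summed to 1580 to 1715 in XY and 1346 to 1641 in XX. The 12 oocyte markers summed to 86050 to 91810 in XY and 94500 to 99950 in XX, with 2 of them lower. No marker was listed at 0, and the part of these cells in the change of Psmb9 was not tested.

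Psmc6 encodes an ATPase of the ring at the base of the regulatory particle. Its log2 level was 11.56, 11.50 and 11.38 in XY 1 to XY 3, against 11.03, 10.68 and 10.82 in XX 1 to XX 3. The XY arrays lay above the XX arrays, and the change was 0.64 ± 0.16 (SE, limma adjusted p = 0.0400). A second kept probe set of the gene had 0.36 ± 0.17, also without overlap between the groups. In limma's fit over all 22997 kept probe sets, these 2 had adjusted p-values of 0.0531 and 0.205. A further probe set, dim and not kept, went the other way, with -0.60 ± 0.22 without the filter and its XY arrays below its XX arrays. The call depended on scaling, with a change of 0.27 (adjusted p = 0.604) for the deposited values and 0.10 (adjusted p = 0.798) with median scaling. All genes together had medians of -0.12 and -0.27 under these scalings. It was also lost without XY 1 (adjusted p = 0.120), XY 2 (0.126), XY 3 (0.0972), XX 2 (0.113) or XX 3 (0.107), without a filter (0.0816) and when its probe sets were averaged (0.0568). The other 5 ATPases, Psmc1 to Psmc5, had changes of -0.34 to 0.11 and did not pass.

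Psmd10, an X-linked gene also called gankyrin, encodes a chaperone that helps assemble the base. Its log2 level was 8.35, 8.26 and 8.12 in XY 1 to XY 3, against 9.35, 8.80 and 8.98 in XX 1 to XX 3. The XY arrays lay below the XX arrays. It fell by 0.80 on the log2 scale (SE 0.18, limma adjusted p = 0.0334), a ratio of XY to XX of 0.574. Psmd10 was the member on the X chromosome, where 95 of 375 tested genes fell (25.3%), with a median change of -0.28. The call was lost without XY 1 (adjusted p = 0.0781), XY 2 (0.0993), XY 3 (0.111), XX 2 (0.0534) or XX 3 (0.0867) and with no filter (0.0682). The base chaperones Psmd5 and Psmd9, both autosomal, had changes of 0.18 ± 0.15 and 0.01 ± 0.18.

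**Figure D2:**
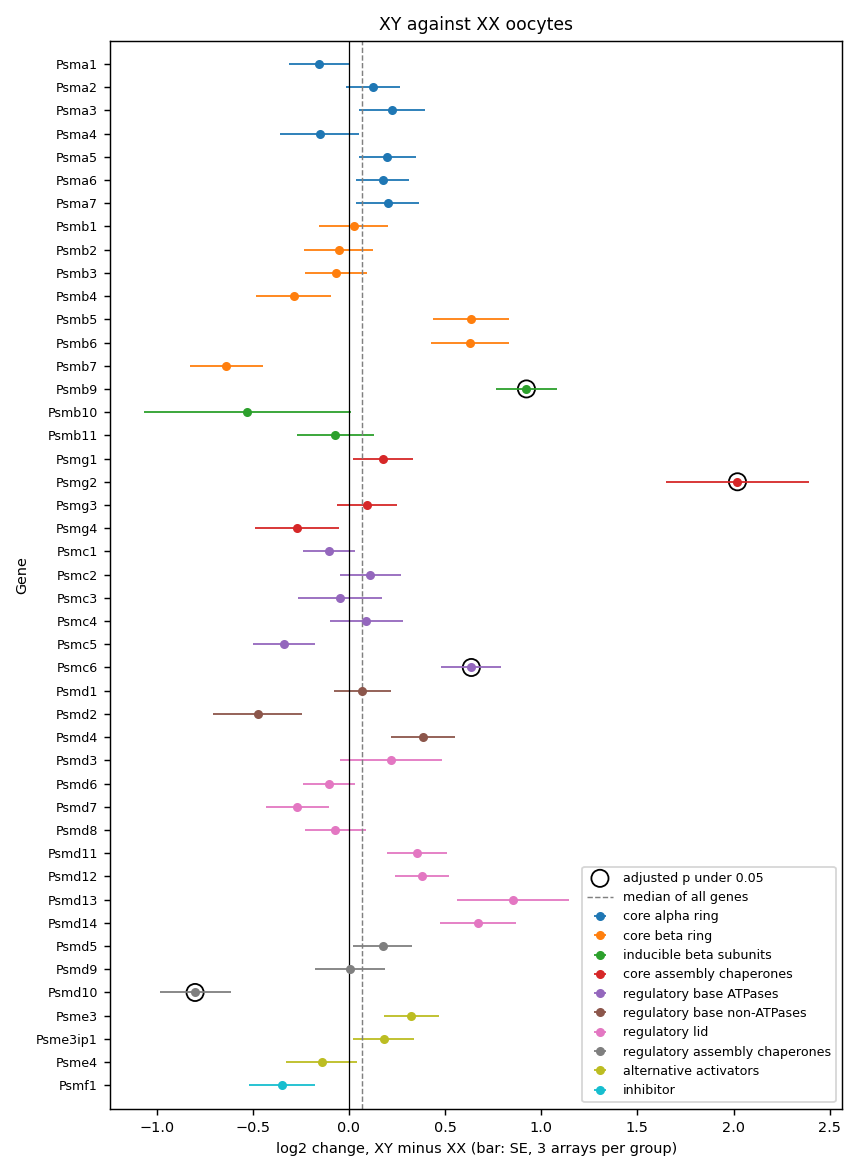
Log2 change, XY minus XX, of each tested proteasome gene (points, coloured by role) with its SE (bars, 3 arrays per group). Circles mark Psmg2, Psmb9, Psmc6 and Psmd10, which passed an adjusted p of 0.05; the dashed line is the median of all genes, 0.07.

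The 3 subunits with the protease sites did not share a direction. Psmb5 carries the chymotrypsin-like activity, Psmb6 the caspase-like activity and Psmb7 the trypsin-like activity. Psmb5 had log2 levels of 10.62, 10.85 and 10.74 in XY 1 to XY 3, against 10.44, 9.79 and 10.08 in XX 1 to XX 3. Psmb6 had 12.12, 12.17 and 12.18 in XY, against 11.92, 11.21 and 11.44 in XX. Both lay higher in XY without overlap, with XX 1 the nearest XX array. Psmb7 had 9.44, 8.94 and 8.89 in XY, against 9.82, 9.67 and 9.68 in XX, so its XY arrays lay below its XX arrays. The changes were 0.64 ± 0.20, 0.63 ± 0.20 and -0.64 ± 0.19 (SE) for Psmb5, Psmb6 and Psmb7, and their limma adjusted p-values, 0.0737, 0.0813 and 0.0656, missed the threshold. Without XX 1, Psmb5 (0.81, adjusted p = 0.0188) and Psmb6 (0.83, adjusted p = 0.0122) passed, and with median scaling Psmb7 passed (-1.12, adjusted p = 0.0210), while Psmb5 and Psmb6 had 0.11 and 0.09.

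Ratios between these subunits were then taken within each array. Centred on its mean over the arrays, the log2 ratio of Psmb5 to Psmb7 was 0.17, 0.90 and 0.84 in XY, against -0.40, -0.89 and -0.62 in XX, a difference of 1.27 ± 0.27 (SE). That of Psmb6 to Psmb7 differed by 1.27 ± 0.25, and that of Psmb5 to Psmb6 by 0.01 ± 0.06. The ratios to Psmb7 did not overlap between the groups, and that of Psmb5 to Psmb6 did. The lack of overlap follows from the levels of the single genes given above, and the differences restate their changes. These subunits were chosen with results known, and these differences are given with no test.

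**Figure D3:**
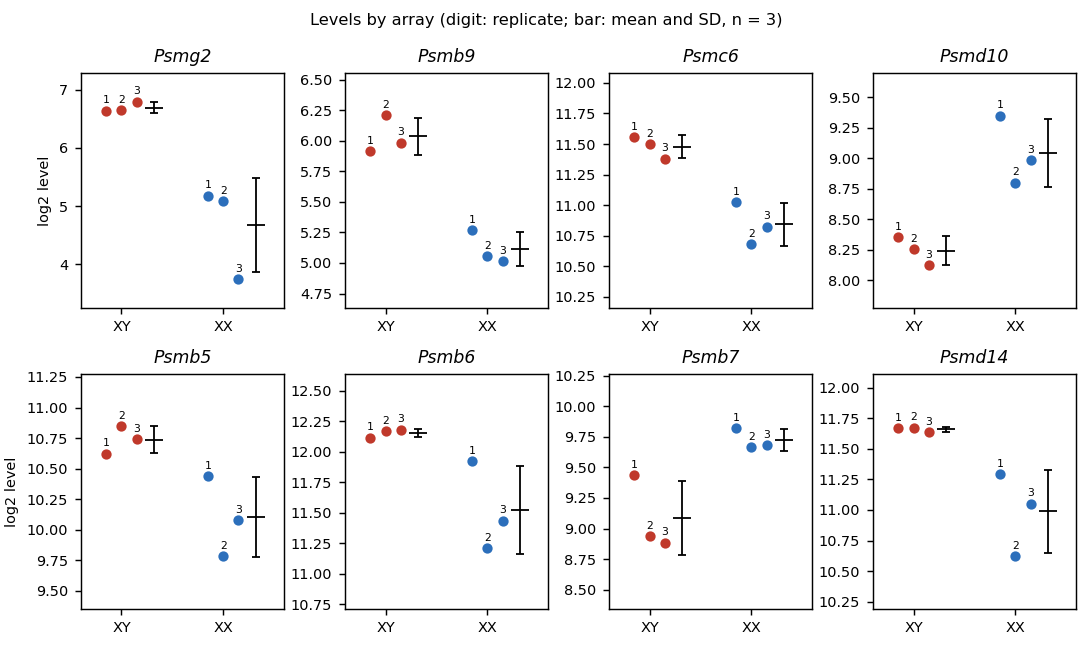
Log2 level on each array (points, labelled with the replicate number; XY left of XX) of the 4 genes past the threshold (top row) and of Psmb5, Psmb6, Psmb7 and Psmd14 (bottom row), with mean and SD (bars, n = 3). XY and XX arrays do not overlap in any panel, and XX 1 is the XX array nearest to XY for all but Psmd10 and Psmb7; each vertical axis has its own range.

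In the rest of the core particle, 0 of the 7 alpha subunits passed limma's test, with 0 at an unadjusted p under 0.05, and their changes ran from -0.16 to 0.22 with a median of 0.17. Psma6, for example, had log2 levels of 13.41, 13.36 and 13.30 in XY, against 13.28, 13.13 and 13.15 in XX, a change of 0.17 ± 0.14. Psma5 had a change of 0.20 ± 0.15. Psma8, an alpha subunit of germ cells that replaces Psma7, lay below the median on all 6 arrays and had a change of 0.37 ± 0.26 without the filter. Among the beta subunits without protease sites, Psmb1, Psmb2, Psmb3 and Psmb4 had changes of -0.29 to 0.02, with Psmb4 at -0.29 ± 0.19. The core assembly chaperones Psmg1 (0.18 ± 0.16), Psmg3 (0.09) and Psmg4 (-0.27) did not pass, unlike Psmg2.

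In the regulatory particle, the lid had a higher median change than the ATPases (0.02) and the other base subunits (0.07), a difference that was not tested. Of its 8 subunits 0 passed limma's test, 3 (37.5%) had an unadjusted p under 0.05, near the 32.2% of all genes, and the median change was 0.29. Psmd14, the deubiquitinase that cuts ubiquitin from the substrate, had log2 levels of 11.67, 11.67 and 11.64 in XY 1 to XY 3, against 11.29, 10.62 and 11.05 in XX 1 to XX 3. The groups did not overlap, and the XY arrays lay close together. Its change was 0.67 ± 0.20 (limma adjusted p = 0.0634), or 0.82 without XX 1 (adjusted p = 0.0212) and 0.14 with median scaling. Psmd13, a dim lid subunit, had a change of 0.85 ± 0.29 (adjusted p = 0.0914), and its other kept probe set had 0.92 ± 0.26. Without XX 1, Psmd13 passed as well. Psmd12 and Psmd11 had 0.38 ± 0.14 and 0.35 ± 0.16, Psmd3 had 0.22, and Psmd6, Psmd7 and Psmd8 had -0.27 to -0.07. In the base, the ubiquitin receptor Psmd4 had 12.60, 12.57 and 12.58 in XY, against 12.42, 12.24 and 11.94 in XX, a change of 0.38 ± 0.17 (adjusted p = 0.161). The scaffold subunits Psmd1 and Psmd2 had 0.07 and -0.48.

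The core was then set against the regulatory particle as a whole, with assembly chaperones and inducible subunits apart. Of 14 core genes 0 passed limma's test and 3 (21.4%) had an unadjusted p under 0.05, and of 17 regulatory genes 1 passed and 4 (23.5%) had such a p, against 13.2% and 32.2% of all genes. With each gene centred on its mean over the arrays, the median core gene lay at 0.13, 0.01 and 0.03 in XY 1, XY 2 and XY 3, against 0.04, -0.06 and -0.12 in XX 1, XX 2 and XX 3. The median regulatory gene lay at 0.12, 0.05 and -0.0019 in XY, against -0.0039, -0.14 and -0.08 in XX. XY minus XX was 0.10 ± 0.06 (SE) for the core median and 0.13 ± 0.05 for the regulatory median. The core minus the regulatory median was -0.0026 ± 0.04 in XY and 0.03 ± 0.07 in XX (SD, n = 3 each), a difference of -0.03 ± 0.04 (SE) that is smaller than the spread between arrays. Leaving out 1 array moved it between -0.11 (without XX 3) and 0.04 (without XY 2). No p is given for these medians, since the genes were chosen with results known.

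**Figure D4:**
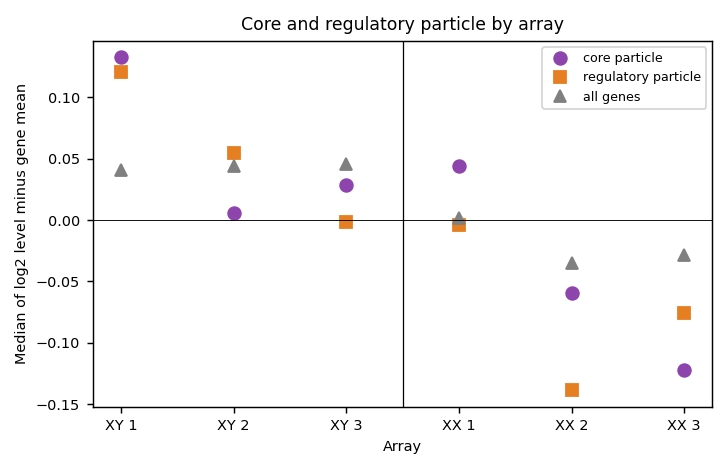
Median over 14 core genes (circles), 17 regulatory genes (squares) and all genes (triangles) of the log2 level minus the mean of each gene, on the 6 arrays. Core and regulatory medians lie at 0.13 and 0.12 in XY 1 and at -0.12 and -0.08 in XX 3, and neither stays above the other.

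Activators bind the ends of the core barrel. Psme3, the nuclear activator subunit, had log2 levels of 9.90, 9.93 and 9.78 in XY, against 9.66, 9.44 and 9.53 in XX, a change of 0.32 ± 0.14 (limma adjusted p = 0.165), while its other kept probe set had -0.13. Psme4, an activator known for its part in spermatogenesis, had -0.14 ± 0.18, and another of its 3 kept probe sets had -0.69 ± 0.22. Psme1, an interferon-inducible activator subunit, reached the median on 2 arrays, both XY, and a change of 0.81 ± 0.28 without the filter (adjusted p = 0.190 over all 45037 probe sets). The inhibitor Psmf1 had -0.35 ± 0.17 (adjusted p = 0.206), and passed with median scaling (-0.88, adjusted p = 0.0419). Psme3ip1, a partner of Psme3 that entered by its symbol, had 0.18 ± 0.16.

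Probe sets of 1 gene did not always go together. Of the 101 probe sets 73 were kept, and 2 of these were higher and 2 lower past an adjusted p of 0.05 over 22997 probe sets, of which 10.5% passed. Without the filter, 0 of the 101 passed over all 45037 probe sets by limma, with 16 at an unadjusted p under 0.05, and 1.37% of all probe sets passed. Of 19 genes with several kept probe sets, 9 had changes of opposite sign. Psmd11, a lid subunit, had 6 kept probe sets with changes of -0.86 to 0.43. The probe set at -0.86 ± 0.21 (limma adjusted p = 0.0436) was dim, and the one that stood for the gene had 0.35 ± 0.17. Opposite signs were also seen for Psma6, Psmb4, Psmc4, Psmd4, Psmd6, Psmd9, Psme3 and Psmf1.

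**Figure D5:**
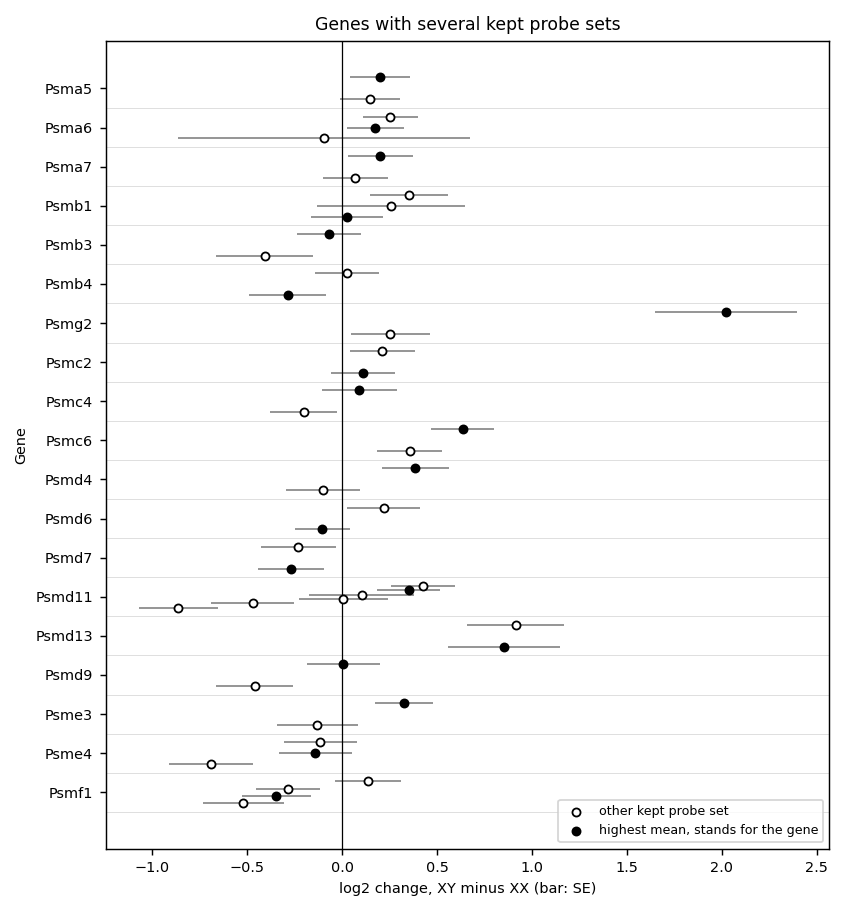
Log2 change, XY minus XX, of every kept probe set (points, with SE bars) of the 19 proteasome genes that had several. Filled points are the probe sets with the highest mean, which stood for the gene; the probe sets of Psmd11 run from -0.86 to 0.43 and those of Psmg2 lie at 0.25 and 2.02.

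Of 42 listed genes around the proteasome, 32 were tested, and 1 rose and 1 fell (6.25%), against 13.2% of all genes. By limma, 9 of the 32 (28.1%) had an unadjusted p under 0.05, against 32.2% of all genes. Ubqln2, an X-linked gene for a shuttle that carries ubiquitinated proteins to the proteasome, had log2 levels of 10.23, 10.20 and 10.47 in XY, against 11.37, 11.45 and 11.47 in XX. It fell by 1.13 on the log2 scale (SE 0.15, limma adjusted p = 0.00709), a call that was lost when the fit included the 3' over 5' ratio of the Actb control probe sets (-1.09, adjusted p = 0.0622). The gene that rose was Uba1y, a ubiquitin-activating enzyme encoded on the Y chromosome, which XX females lack. Of 7 listed genes for ubiquitin and its activation 2 were tested, Uba1y and Uba6, both at an unadjusted p under 0.05 by limma. Uba6, on chromosome 5, had a change of 0.68 ± 0.19 (limma adjusted p = 0.0571), without overlap between the groups. The X-linked Uba1 had no probe set assigned to it alone. Deubiquitinases and shuttles of the proteasome, Ubqln2 among them, had 1 of 10 past limma's threshold and 3 (30%) at an unadjusted p under 0.05. Subunits and chaperones outside the Psm symbols had 0 of 6 past limma's threshold and 2 (33.3%) at an unadjusted p under 0.05. Of these 6, the lid subunit Sem1 had a change of 0.55 ± 0.19 (adjusted p = 0.0939) and the core chaperone Pomp had 0.12 ± 0.24. Genes that control the transcription of subunits had 0 of 7 past limma's threshold, with 2 (28.6%) at an unadjusted p under 0.05. Nfe2l1 had -0.32 ± 0.16 and Nfe2l2 -0.39 ± 0.16. Genes of substrate unfolding had 0 of 7 past the threshold by limma and 0 at an unadjusted p under 0.05, and Vcp, the segregase, had 0.01 ± 0.18.

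The XX arrays were not alike. Across the 45 genes, XX 1 lay nearer to the XY mean than to the mean of XX 2 and XX 3 for 26 (57.8%), against 50.2% of all genes. The Actb control probe sets gave a 3' over 5' log2 ratio, a measure of RNA length, of 5.69, 5.01 and 5.39 in XY 1 to XY 3, against 5.28, 3.80 and 3.93 in XX 1 to XX 3. When the fit included this ratio, 0 of the 45 genes passed limma's test, with 5 at an unadjusted p under 0.05, and 1.01% of all genes passed. Psmg2 then had 1.61 (adjusted p = 0.160), Psmb9 0.85 (0.102), Psmc6 0.45 (0.240) and Psmd10 -1.11 (0.0592). Without XX 1, 7 proteasome genes rose and 1 fell (17.8%), while the share of all genes past the threshold was 26.1%. The 4 further genes were Psmb5, Psmb6, Psmd13 and Psmd14.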

How the data were processed

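The deposited values are linear intensities of a 3' expression array, hybridised after 2-cycle labelling per the labels' protocols. The submitters' processing notes name MAS5. For its version and scaling target, nothing is given in the sources used here. Array medians ran from 24.5 to 31.4 and trimmed means from 193.5 (XY 2) to 332 (XX 3), so the 45037 probe sets other than 64 controls were quantile-normalized. Levels are log2(intensity + 9), and folds understate dim genes. Probe sets reaching the array median in 3 or more of 6 arrays were used (22997), and each gene was read through its brightest one, for 12442 genes named through the platform annotation and GRCm38.p6. The XY minus XX contrast was fitted with limma 3.58.1 (lmFit, eBayes; R 4.3.3), p-values were adjusted by Benjamini-Hochberg, and the code was tested on simulated data beforehand. With 3 arrays per group, their number limits the precision. The members, gene lists, markers and motifs were chosen with earlier results of these data known. Every member past the threshold is named, with subunits of known activity, the member of each role with the smallest p or highest mean, and members whose probe sets disagree; other members, Psmd12 and Psmd13 among them, were named after their values were seen. Same-numbered arrays deviated with correlations of -0.10, 0.00 and -0.04, and differently numbered arrays with -0.06 to 0.10. With 3 arrays per group, these values cannot settle whether the replicate numbers pair samples. The main fit used no pairing. Alternatives are listed in the closing section.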

Additional observations from a re-analysis of the deposited data

How the results depend on the processing

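The count of 3 higher proteasome genes became 7 at an adjusted p of 0.1, 5 with a pseudocount of 32, 8 with a trended variance, 7 with array weights, 1 with the replicate block and 0 with the Actb ratio as a covariate, and ran from 0 to 7 when 1 array was left out. The share of all genes past the threshold, 13.2%, moved too, to 24.3%, 17.5%, 19.6%, 26.2%, 5.46% and 1.01% in that order of settings, and from 3.91% to 26.1% when 1 array was left out. The count of 1 lower gene became 2 at an adjusted p of 0.1, with a pseudocount of 32, with the 70th percentile filter or with a trended variance, 3 with median scaling, and 0 with no filter, the replicate block or the Actb covariate. It ran from 0 to 1 when 1 array was left out. Among all genes, 25.8% passed in either direction with the 70th percentile filter, 16.9% with median scaling and 5.02% with no filter. The genes lower among all tested numbered 908, 1622 and 347 in that order, against 665 in the main setting. The core minus regulatory difference ran from -0.11 to 0.039 when 1 array was left out and from -0.03 to 0.03 under the other alternatives; its sign is not settled. Under the replicate block, which treats same-numbered arrays as pairs, Psmg2 passed limma's test (adjusted p = 0.0417) and Psmb9 (0.0536), Psmc6 (0.0902) and Psmd10 (0.0667) did not. The changes of Psmg2 (1.14 to 2.59), Psmb9 (0.62 to 1.26), Psmc6 (0.10 to 0.73) and Psmd10 (-1.24 to -0.65) kept their sign in each alternative that tested them. Of the 41 genes that did not pass, 27 changed sign in at least 1 alternative without passing there, and 8 passed in at least 1, namely Psmb5, Psmb6, Psmb7, Psmd11, Psmd12, Psmd13, Psmd14 and Psmf1. The cause of these shifts was not tested. Median scaling moved the median of all genes to -0.27, the deposited values to -0.12 and trimmed mean scaling to 0.18. Dim signal limits what can be said of Psma8, Psmb8 and Psme1.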
